A study of Mus musculus with 6 samples.

Results

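The 10 genes described here encode the metallothioneins *Mt1*, *Mt2* and *Mt3*, the zinc sensor *Mtf1*, the zinc exporters *Slc30a1* and *Slc30a4*, and the zinc importers *Slc39a6*, *Slc39a8*, *Slc39a10* and *Slc39a14*. They were chosen by gene symbol, and all 10 were found among the 24016 genes of the deposited table through their Ensembl identifiers. RNA-seq was performed on MC3T3-E1 subclone 4 cells, a wild-type mouse preosteoblast line from newborn calvaria. Differentiation took 6 days in medium with ascorbic acid (50 µg/ml) and β-glycerophosphate (10 mM). They then received 100 nM corticosterone, the main glucocorticoid of rodents, or vehicle for 24 h, and per the labels calcitriol (10 nM), the active form of vitamin D, was present during treatment. Each group had 3 libraries, which the study describes as biological replicates of a single cell line. The labels give passages 6 to 12 as the batch of every library and passages 4 to 10 in the growth protocol.

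Metallothioneins are small, cysteine-rich proteins that bind zinc and copper in the cytosol. When free zinc rises, the transcription factor Mtf1 binds zinc and activates genes with metal response elements in their promoters, *Mt1*, *Mt2* and *Slc30a1* among them, and glucocorticoids are also known inducers of metallothionein genes. SLC30 proteins carry zinc out of the cytosol, to the outside or into vesicles, and SLC39 proteins carry it in. Osteoblasts depend on zinc for, among others, alkaline phosphatase, a zinc enzyme of mineralization.

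The libraries held 16020401 to 25638645 reads on genes. The 3 corticosterone libraries (16020401 to 18992332 reads) were shallower than the 3 vehicle libraries (19076586 to 25638645 reads), and the values below are normalized counts, that is reads divided by a size factor per library. A gene with 3 reads, taken as the floor for counting error, had a normalized count of 2.32 to 3.84. A list of 10 glucocorticoid targets was chosen with earlier results of these data known. All 10 rose past the threshold of the study in limma, where 1.38% of all genes did. The study applied that threshold to DESeq2. *Fkbp5* went from 463 ± 13.5 to 2556 ± 226 (mean ± SD, n = 3 per group) and *Tsc22d3* from 511 ± 30.6 to 1438 ± 93.3. By edgeR and by DESeq2 9 were called higher. *Zbtb16*, with 0 reads in every vehicle library and 6, 6 and 7 with corticosterone, got no adjusted p from either. The osteoblast markers *Col1a1* (709240 ± 17387 with vehicle) and *Runx2* (2339 ± 127) were well covered. Of 10 such markers 8 fell and 1, *Spp1*, rose, where 8.2% of all genes fell and 8.49% rose (limma, adjusted p under 0.05). Of these calls, those of *Col1a1*, *Alpl*, *Ibsp* and *Spp1* were lost in at least 1 fit without a library, with adjusted p values of up to 0.374, 0.244, 0.064 and 0.070 (limma). The RNA came from whole cultures, in which fewer cells of a type and less RNA per cell cannot be told apart.

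Corticosterone raised the *Mt1* and *Slc39a14* transcripts, lowered those of *Slc30a1*, *Slc39a6* and *Slc30a4*, and gave no detected difference for the other 5 genes. The small fall of *Slc30a4* lost its call in 6 of 17 alternative fits. Of the 10 genes, 2 were higher and 3 lower at an adjusted p under 0.05 (limma, Benjamini-Hochberg over all genes), where 16.7% of all genes were called (8.49% of all genes as higher and 8.2% of all genes as lower). *Mt1* alone also passed an absolute log2 fold change of 1, as 2.78% of all genes did (1.38% of all genes as higher and 1.4% as lower). The libraries of the groups did not overlap for 6 of the 10 genes, 3 higher and 3 lower, and for 29.6% of all genes (14.7% of all genes higher and 14.9% lower). The median log2 fold change of the 10 genes was 0.02 beside -0.01 for all genes. It includes *Mt2*, *Mt3* and *Slc39a8*, whose few reads leave their fold changes uncertain. With 3 libraries per group an exact permutation test of a single gene cannot go below p = 0.1, so the adjusted p values of the fit across all genes are given.

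**Figure D1:**
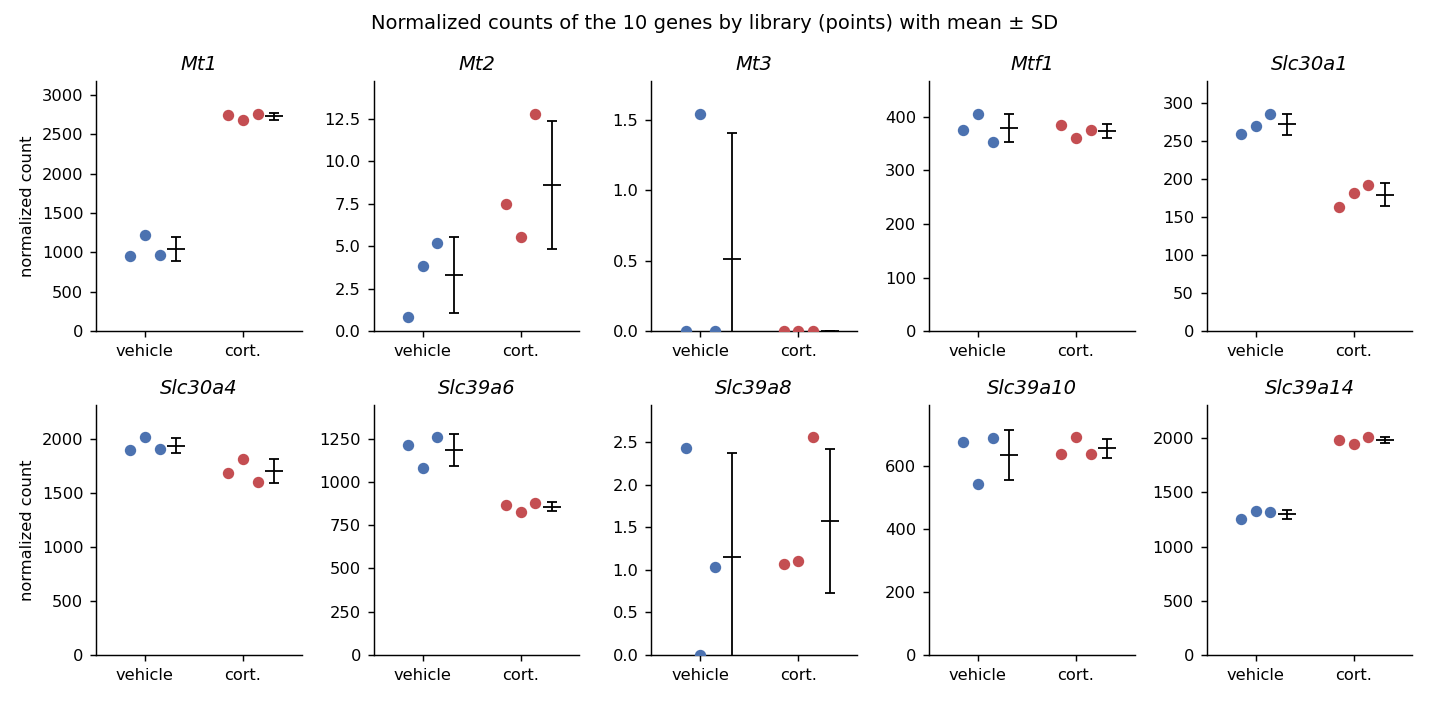
Each panel shows the normalized count of 1 gene on a linear axis from 0, with a point per library and the mean ± SD (n = 3) beside the points, where bars that would reach below 0 stop at 0. The groups are widely separated for *Mt1* (956 to 1223 with vehicle, 2680 to 2763 with corticosterone) and *Slc39a14*, and *Mt3* and *Slc39a8* lie at 0 to 2.56 in every library.

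*Mt1*, on chromosome 8 (94179082 to 94180327, plus strand, GRCm38), had the largest log2 fold change of the 5 genes that passed the test. Normalized counts of 956, 1223 and 962 were measured with vehicle and of 2743, 2680 and 2763 with corticosterone. Every corticosterone library lay above every vehicle library, and the corticosterone libraries differed little among themselves. The mean rose from 1047 ± 153 to 2729 ± 43.7 (SD, n = 3), a 2.62-fold increase with a 95% interval of 2.35 to 2.93. The log2 fold change was 1.39 with a standard error of 0.07 and an adjusted p of 1.1e-09 in limma. It rested on 930 to 2562 reads per library and lay between 1.33 and 1.51 when each library was left out in turn. No 31-base stretch of the annotated *Mt1* transcripts occurred in a transcript of another gene.

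*Mt2* lies upstream of *Mt1* on the same strand (94172664 to 94173568), with 5514 bases between the end of *Mt2* and the start of *Mt1*. It was counted with only 1, 5 and 5 reads after vehicle and 7, 5 and 10 reads after corticosterone. The normalized counts were 0.811, 3.86 and 5.17 with vehicle and 7.49, 5.52 and 12.8 with corticosterone. The corticosterone libraries were higher without overlap, but the gap between the nearest libraries, 5.17 and 5.52, was small beside the spread within either group. The log2 fold change was 1.62 with a standard error of 0.81, a 95% interval of -0.09 to 3.33 and an adjusted p of 0.222 in limma, so that a difference was not detectable at 11 and 22 reads per group.

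*Mt2* and *Mt1* are known as a neighbouring pair that responds to the same inducers, and their ratio was therefore compared between the groups. *Mt2* amounted to 0.0848%, 0.315% and 0.538% of *Mt1* after vehicle and to 0.273%, 0.206% and 0.463% after corticosterone. The ratios of the groups overlapped, with a difference of 0.23 in mean log2 ratio (two-sided exact permutation test, p = 0.9, n = 3 per group). The sign of this difference depended on vehicle library 1, without which it was -0.49, on corticosterone library 3, without which it was -0.09, and on the pseudocount, since it was -0.12 with a pseudocount of 1. With 1 to 10 *Mt2* reads per library and no p below 0.1 possible, the test cannot decide whether both genes changed by the same factor.

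The *Mt2* gene overlaps a gene on the other strand. A single-exon antisense gene, *Gm45774* (94170748 to 94173412, minus strand), covers 432 of the 588 exonic bases of *Mt2*, or 73.5%, and leaves 156 bases at its 3′ end free. Of the distinct 31-base stretches of *Mt2* transcripts, 57.6% also occur, on one strand or the other, in *Gm45774*. That gene was itself counted with 3, 0 and 1 reads after vehicle and 1, 4 and 3 reads after corticosterone. Whether the counting used strand is not stated in the sources used here, so reads of *Mt2* and of its antisense partner cannot be told apart, and the part of this overlap in the low *Mt2* count was not tested.

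**Figure D2:**
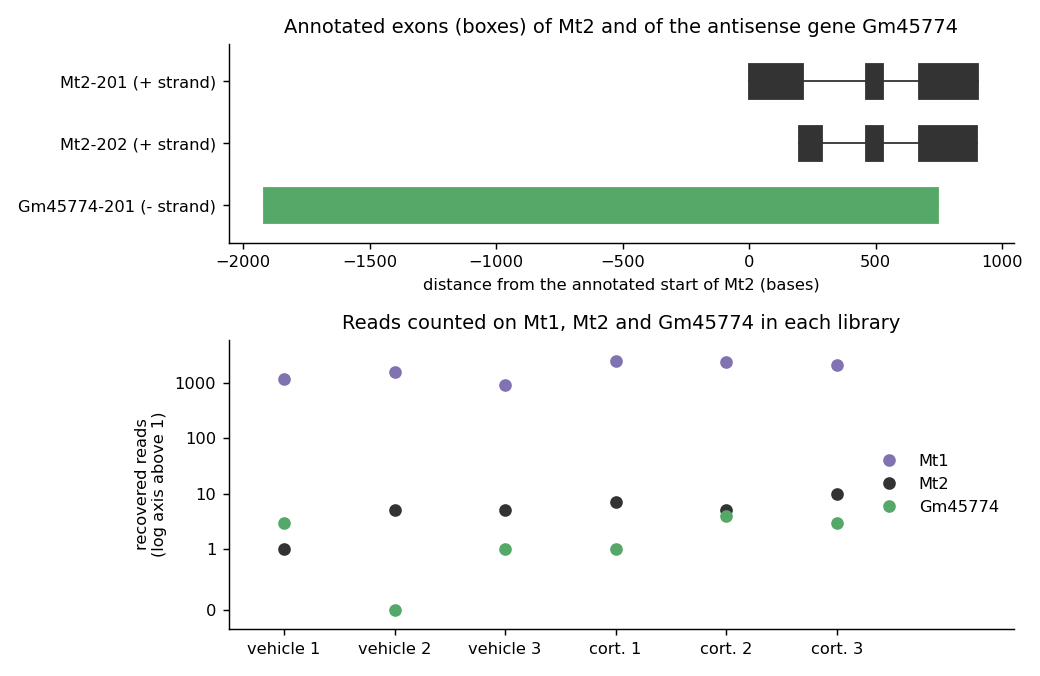
The upper panel maps the annotated exons of both *Mt2* transcripts and of the antisense gene *Gm45774* by distance from the start of *Mt2* in bases. The lower panel plots recovered reads per library on an axis that is logarithmic above 1: *Mt1* has 930 to 2562 reads, *Mt2* 1 to 10 and *Gm45774* 0 to 4.

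To show the DNA around these starts, the windows from 250 bases before to 50 bases after each RefSeq start (GRCm38.p6) were searched on both strands for a metal response element core, TGCACNC or TGCGCNC, the sequence that Mtf1 is known to bind. The table of promoters held 10 starts for 8 of the 10 genes, and *Slc39a6* and *Slc39a14* had no entry. The core occurred 3 times in the *Mt1* window, 4 times in that of *Mt2* and 2 times in that of *Slc30a1*. Among 32851 RefSeq promoters of the same length, 25.7% held at least 1 core, 7.11% at least 2, 1.97% at least 3 and 0.518% at least 4. The 250 bases before the start of these 3 genes are printed because their transcripts are known Mtf1 targets, and the first bases after the start of *Mt1* and *Mt2* because they hold further cores. All lie on the plus strand, 5′ to 3′, with the cores in capitals.

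*Mt1* before the start, chr8:94178839-94179088: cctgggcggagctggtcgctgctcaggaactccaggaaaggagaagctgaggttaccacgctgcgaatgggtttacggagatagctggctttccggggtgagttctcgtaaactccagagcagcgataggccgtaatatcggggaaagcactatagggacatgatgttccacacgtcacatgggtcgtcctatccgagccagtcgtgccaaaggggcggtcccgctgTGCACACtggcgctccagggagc
*Mt1* from the start, chr8:94179089-94179117: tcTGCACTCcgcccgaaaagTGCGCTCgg
*Mt2* before the start, chr8:94172368-94172617: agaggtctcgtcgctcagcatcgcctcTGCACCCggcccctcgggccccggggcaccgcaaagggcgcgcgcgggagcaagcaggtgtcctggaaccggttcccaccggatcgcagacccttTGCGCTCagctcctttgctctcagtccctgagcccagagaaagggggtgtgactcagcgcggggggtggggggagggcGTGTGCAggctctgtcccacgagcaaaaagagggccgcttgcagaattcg
*Mt2* from the third base, chr8:94172620-94172630: tcGTGCGCAgg
*Slc30a1* before the start, chr1:191906531-191906780: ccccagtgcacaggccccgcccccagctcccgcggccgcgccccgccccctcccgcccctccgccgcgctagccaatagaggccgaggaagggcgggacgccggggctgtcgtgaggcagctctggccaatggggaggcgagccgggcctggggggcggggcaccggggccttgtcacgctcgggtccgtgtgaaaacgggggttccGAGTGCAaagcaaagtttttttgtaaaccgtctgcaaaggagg

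In the *Mt1* window 1 core lay before the RefSeq start, at -23 to -17, and the other 2 after it, at 3 to 9 and 21 to 27. Positions count from 1 at the RefSeq start, with no position 0. The gene annotation starts *Mt1* at 94179082, before its RefSeq start, and *Mt2* at 94172664, after its RefSeq start. Which bases are transcribed in these cells was not tested, and cores outside the windows were not searched for. The cores of *Mt2* began at -223, -128, -50 and 5, the last 2 of these on the minus strand. Those of *Slc30a1* began at -43 and 31, both on the minus strand, and the core at 31 lies beyond the printed bases. *Slc30a4* held 3 cores and *Mt3* 1, a start of *Slc39a8* held 1, and neither *Mtf1* nor the windows of *Slc39a10* held any. The genes with cores thus included a gene that rose, genes that fell and genes with too few reads for a test.

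The same windows were searched for the full glucocorticoid response element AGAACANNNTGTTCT, for its half-site AGAACA, which is part of it, and for the antioxidant response element TGACNNNGC. The full glucocorticoid element was present in 3 of all promoters (0.00913%) and in none of these windows. Its half-site, present in 19.0% of promoters, occurred in the *Mtf1* window, at -223. The antioxidant element, present in 12.4% of promoters, occurred in the windows of *Mt2*, *Slc30a1* and a start of *Slc39a8*. These matches are letters in a window and are not evidence of a bound site. The absence of an element as rare as the full glucocorticoid element says nothing on these genes, and bases outside the windows were not searched.

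**Figure D3:**
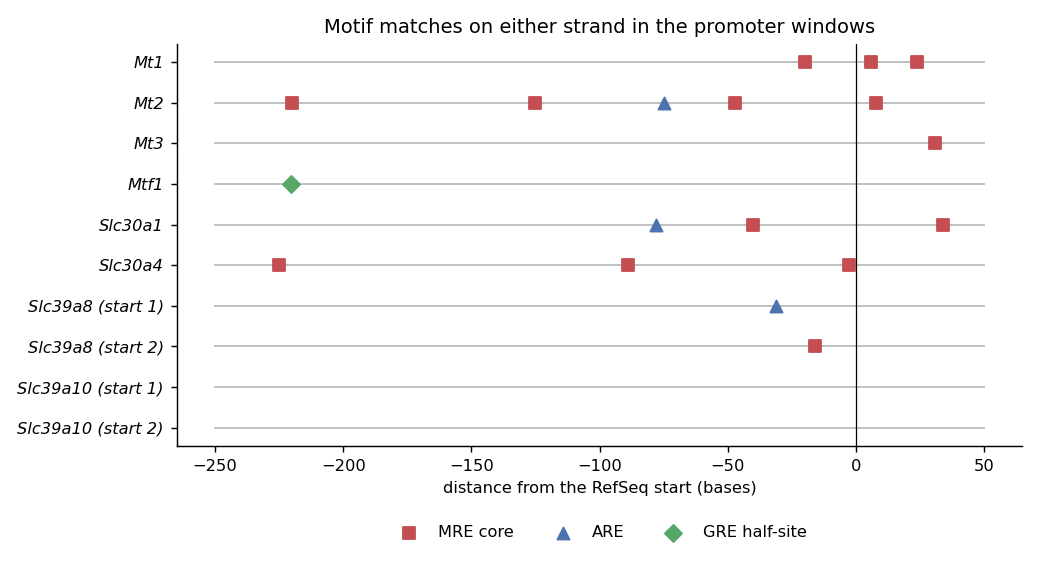
Each line is the 300-base window around a RefSeq start, with the distance from the start in bases on the axis and a marker at the centre of each motif match (square, MRE core, the metal response element; triangle, ARE, the antioxidant response element; diamond, GRE half-site). *Mt2* holds 4 MRE cores, *Mt1* and *Slc30a4* 3 each, and both windows of *Slc39a10* hold no match.

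*Mt3*, the metallothionein known from brain, lies on chromosome 8 as well (94152607 to 94154146, plus strand). It was counted with 2 reads in vehicle library 2 and with 0 in the other 5 libraries. These counts are below the floor, and no fold change is given. *Mt4*, the metallothionein of stratified epithelia, was not among the genes of the deposited table.

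*Mtf1*, on chromosome 4 (124802104 to 124849800, plus strand), is the zinc-sensing activator of the metallothionein genes. Its normalized counts were 376, 406 and 354 with vehicle and 385, 360 and 375 with corticosterone, and the groups overlapped. The log2 fold change was -0.02 with a 95% interval of -0.18 to 0.15 and an adjusted p of 0.936 in limma. The interval corresponds to a difference between -12.0% and 10.7% in the transcript. The activity of the protein was not measured, and its part in the 2.62-fold rise of its target *Mt1* was not tested. The neighbour *1110065P20Rik* on the other strand shares 8.1% of the exonic bases of *Mtf1* and had 451 to 889 reads.

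Both exporters among the 10 genes were lower with corticosterone. *Slc30a1*, the main zinc exporter of the plasma membrane, lies on chromosome 1 (191906767 to 191913247, plus strand). Its normalized counts were 260, 270.1 and 287 with vehicle and 164, 182 and 193 with corticosterone, without overlap. The mean fell from 272 ± 13.2 to 179.7 ± 14.8 (SD, n = 3), with a log2 fold change of -0.60, a standard error of 0.10 and an adjusted p of 2.8e-04 in limma. The change was -34.1%, with a 95% interval of -42.9% to -23.9%, and rested on 151 to 350 reads per library. *Slc30a1* and *Mt1*, both known Mtf1 targets, thus moved in opposite directions, and the part of Mtf1 in either change was not tested. The antisense gene *1700034H15Rik* shares 8.92% of the exonic bases of *Slc30a1* and had 3, 7 and 5 reads with vehicle and 1, 0 and 0 with corticosterone, with an adjusted p of 0.038 in limma that reached 0.183 without a library and 0.126 under another setting.

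*Slc30a4*, on chromosome 2 (122681233 to 122702663, minus strand), loads zinc into vesicles and is known for its part in milk zinc. It was measured at normalized counts of 1897, 2015 and 1905 with vehicle and 1685, 1818 and 1603 with corticosterone. The corticosterone libraries lay below the vehicle libraries without overlap, by a small margin. The mean fell from 1939 ± 66.1 to 1702 ± 108 (SD, n = 3), with a log2 fold change of -0.19, a standard error of 0.05 and an adjusted p of 0.021 in limma. This call was lost without the variance trend (adjusted p = 0.256) and in 5 of 6 fits that left out a library (0.141 to 0.202), namely each vehicle library and corticosterone libraries 1 and 3.

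The 4 importers did not move together. *Slc39a14*, on chromosome 14 (70303469 to 70351425, minus strand), carries iron and manganese as well as zinc across the plasma membrane. The normalized counts were 1253, 1331 and 1316 with vehicle and 1984, 1951 and 2007 with corticosterone. All corticosterone libraries were higher, and the libraries of each group lay close together. The mean rose from 1299.7 ± 41.3 to 1980.5 ± 28.5 (SD, n = 3), with a log2 fold change of 0.61, a standard error of 0.05 and an adjusted p of 9.1e-08 in limma. The increase was 1.52-fold, with a 95% interval of 1.42 to 1.63, and the log2 value stayed between 0.58 and 0.63 when single libraries were left out.

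*Slc39a6*, on chromosome 18 (24579881 to 24603817, minus strand), is a plasma membrane importer and the partner of *Slc39a10* in a known complex. Its normalized counts were 1212, 1080.5 and 1258 with vehicle and 865, 828 and 878 with corticosterone, without overlap. The mean fell from 1184 ± 92.0 to 857 ± 25.6 (SD, n = 3), with a log2 fold change of -0.46, a standard error of 0.06 and an adjusted p of 4.1e-05 in limma. The change was -27.5%, with a 95% interval of -33.8% to -20.5%.

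*Slc39a10*, on chromosome 1 (46807544 to 46892852, minus strand), did not follow its partner beyond the spread between libraries. Its normalized counts were 675, 543 and 687 with vehicle and 637, 690.3 and 638 with corticosterone. The groups overlapped, and vehicle library 2 was the lowest of the 6. The log2 fold change was 0.05 with a 95% interval of -0.12 to 0.23 and an adjusted p of 0.749 in limma. The interval does not overlap that of *Slc39a6*, which ran from -0.60 to -0.33, though the difference between the genes was not tested.

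*Slc39a8*, on chromosome 3 (135825279 to 135888572, plus strand) and the closest relative of *Slc39a14*, was counted with 3, 0 and 1 reads with vehicle and 1, 1 and 2 with corticosterone. These cultures thus held 1272 to 1853 reads of *Slc39a14* per library and at most 3 of *Slc39a8*. No fold change is given for *Slc39a8*, whose counts were at or below the floor.

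Per kilobase of annotated exon, which makes levels of different genes comparable, *Mt1* led the 10 genes with 840 ± 123 normalized counts per kb in the vehicle group (SD, n = 3). *Slc30a4* followed with 354 ± 12.1, *Slc39a6* with 291 ± 22.6, *Slc39a14* with 123 ± 3.91 and *Slc39a10* with 104 ± 13.1. *Slc30a1* stood at 51.9 ± 2.53 and *Mtf1* at 42.5 ± 2.94. The libraries of neighbours in this order did not overlap down to *Mt2*, at 5.58 ± 3.80, whose libraries overlapped those of *Mt3*, as those of *Mt3* overlapped those of *Slc39a8*. With corticosterone *Mt1* stood at 2190 ± 35.1 normalized counts per kb, *Slc39a14* at 188 ± 2.70 and *Slc39a6* at 210 ± 6.28. *Slc30a1* at 34.3 ± 2.83 was then below *Mtf1* at 41.9 ± 1.43, an exchange of places that no other pair among the 8 most abundant genes made. Lengths are those of all annotated exons of a gene, so that a gene of which the cells use a short transcript is set too low. How reads over exons shared with another gene were assigned is not known. The place of *Mt2*, with 73.5% of its exonic bases covered by *Gm45774*, is therefore uncertain.

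**Figure D4:**
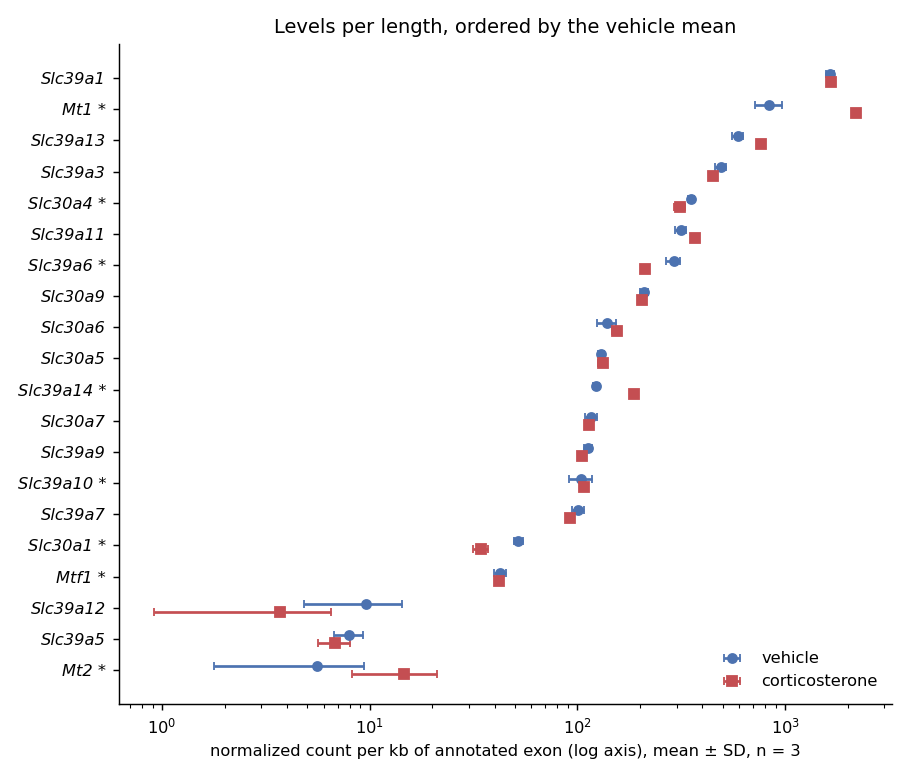
Levels as normalized counts per kb of annotated exon, on a log axis, with the mean ± SD of 3 vehicle libraries (circles) and 3 corticosterone libraries (squares); asterisks mark the genes described singly, and only genes with a mean of at least 10 and *Mt2* are drawn. *Mt1* moves from 840 to 2190, above *Slc39a1* near the top, and most other transporters change little.

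The other genes of both transporter families put these changes in context. For this and the later lists, 8.49% of all genes rose and 8.2% fell by the same limma test. Of the 10 SLC30 genes 8 were measured, and among them *Slc30a1* and *Slc30a4* fell, none rose and 6 did not pass the test. The call of *Slc30a4* was lost in 6 of 17 alternative fits. No SLC30 gene was higher at an unadjusted p under 0.05 either, nor by edgeR or DESeq2. Their median log2 fold change was -0.03 beside -0.01 for all genes, and 2 of the 8 had a mean under 10. *Slc30a9* (2587 ± 106 with vehicle, 2544 ± 20.6 with corticosterone) and *Slc30a5* (949.9 ± 29.0 and 966 ± 49.1), a subunit of the exporter of the early secretory pathway, gave log2 fold changes of -0.02 and 0.02. Summed per kb, the SLC30 genes stood at 1002.5 ± 3.69 with vehicle and 953 ± 23.8 with corticosterone (SD, n = 3). *Slc30a8* and *Slc30a10* were not among the genes of the deposited table.

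Of the 14 SLC39 genes, all of them measured, 3 rose, 1 fell and 10 did not pass the test. Their median log2 fold change was -0.04, and 3 of the 14 had a mean under 10. Besides *Slc39a14*, *Slc39a13* and *Slc39a11* rose, and *Slc39a6* was the gene that fell. *Slc39a13*, a Golgi and vesicle zinc transporter whose loss is known to disturb bone and connective tissue, went from 2872 ± 176 to 3718 ± 170.2, a log2 fold change of 0.37 (adjusted p = 4.9e-05, limma), with an adjusted p of up to 0.066 under another setting. It shares 4.42% of its exonic bases with *Psmc3* on the other strand, which had a log2 fold change of 0.51, and the part of that overlap was not tested. *Slc39a11* went from 1054 ± 67.4 to 1240.5 ± 26.5, a log2 fold change of 0.24 with an adjusted p of 0.007 in limma, which rose to as much as 0.104 without a library and 0.158 under another setting.

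*Slc39a1*, a widely expressed plasma membrane importer, was the most abundant zinc transporter at 1643 normalized counts per kb with vehicle, and its log2 fold change was 0.01 with a 95% interval of -0.08 to 0.11. Of its 31-base stretches 27.7% occur in other genes, mostly the pseudogene *Slc39a1-ps*, which makes its level less certain. *Slc39a7* shares 80.65% of its exonic bases with *Gm20427* on the same strand, so the count of *Slc39a7* is also less certain. *Slc39a12* had the lowest log2 fold change of the zinc transporter genes with a mean of at least 10, -1.59, from 28.8 ± 14.3 to 11.1 ± 8.37, but the groups overlapped and the adjusted p was 0.078 (limma; 0.038 by edgeR and 0.063 by DESeq2). Summed per kb, the SLC39 genes stood at 3788 ± 117 with vehicle and 3953 ± 69.3 with corticosterone (SD, n = 3).

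**Figure D5:**
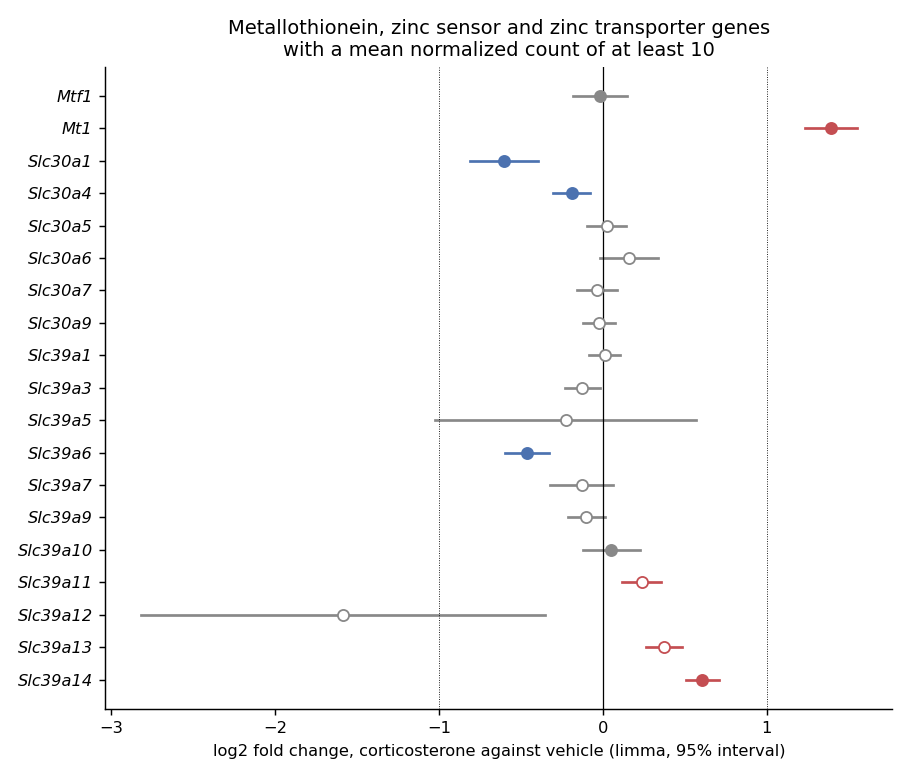
Log2 fold change of corticosterone against vehicle with the 95% interval from limma for metallothionein, zinc sensor and zinc transporter genes with a mean normalized count of at least 10; filled points are genes described singly, red and blue points passed an adjusted p of 0.05 as higher or lower, and dotted lines mark -1 and 1. *Mt1* at 1.39 lies beyond the dotted line with its whole interval, and the transporters that passed lie between -0.60 and 0.61.

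Metallothioneins also bind copper and are known to answer oxidative and metal stress, and *Slc39a14* carries iron, so lists of these pathways were read in the same fit. None of 10 measured copper genes passed an adjusted p of 0.05 in limma, and their median log2 fold change was -0.03. At an unadjusted p under 0.05 there was 1, *Slc31a2*, which edgeR also called and DESeq2 did not. Among them *Atp7a*, the copper-exporting ATPase, had a log2 fold change of -0.05 and *Slc31a2*, a copper transporter of vesicles, 0.22 with an adjusted p of 0.052 in limma, 0.037 in edgeR and 0.105 in DESeq2.

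Of 10 measured iron genes, 3 rose and 3 fell, with a median log2 fold change of -0.05. *Tfrc*, the transferrin receptor through which cells take up iron, fell from normalized counts of 718, 707 and 746 to 375, 385 and 316, a log2 fold change of -1.02 (adjusted p = 7.7e-08, limma). *Slc40a1*, the iron exporter ferroportin, fell from 131 ± 53.2 to 27.1 ± 6.36, a log2 fold change of -2.22 (adjusted p = 9.3e-06, limma). Transcripts of both the main iron uptake receptor and the iron exporter were thus lower while *Slc39a14* was higher. The iron storage genes *Fth1* (0.25) and *Ftl1* (0.44) and the mitochondrial iron importer *Slc25a37* (0.41) rose on the log2 scale, and *Ireb2*, an RNA-binding regulator of iron genes, fell by 0.28. Each of these smaller changes lost its call under at least 1 other setting, with adjusted p values of up to 0.076 for *Fth1*, 0.059 for *Ftl1*, 0.069 for *Slc25a37* and 0.086 for *Ireb2*, while those of *Tfrc* and *Slc40a1* passed in every fit. Ferritin genes have near-identical copies in the genome, so their counts are less certain.

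Of 9 genes of oxidative and metal stress, 5 rose and none fell by limma, edgeR or DESeq2, with a median log2 fold change of 0.22. By limma 8.49% of all genes rose and 8.2% fell. *Gclc*, the catalytic subunit of glutathione synthesis, went from 540.4 ± 87.7 to 966 ± 60.0 (0.85 on the log2 scale, adjusted p = 3.3e-06, limma), and the heat shock gene *Hspa1b* from 1203 ± 19.5 to 1972 ± 104 (0.71, adjusted p = 3.3e-08). *Hspa1b* has a near-identical copy, *Hspa1a*, whose log2 fold change was -0.14, and the split of reads between them is uncertain. The smaller log2 fold changes of *Hmox1* (0.29), *Txnrd1* (0.22) and *Srxn1* (0.22) lost their calls in at least 1 fit that left out a library, with adjusted p values of up to 0.357, 0.170 and 0.107 (limma). *Nqo1*, another target of the antioxidant response, had a log2 fold change of 0.19 and an adjusted p of 0.089. *Slc7a11* went the other way, with 7, 10 and 4 reads after vehicle and 2, 1 and 2 after corticosterone. Its log2 fold change was -1.58 with an adjusted p of 0.241 (limma), on counts near the floor.

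Across the 10542 genes with a mean of at least 100, the genes whose levels followed *Mt1* most closely over the 6 libraries were *Gm10638*, *Adarb1*, an RNA-editing enzyme, and *Dusp1*, a phosphatase of MAP kinases and a known glucocorticoid target. Their root mean square distances from *Mt1* in log2 units, centred on the vehicle mean, were 0.0577, 0.0605 and 0.0685, and their log2 fold changes were 1.38, 1.38 and 1.36. This distance includes the difference between the groups, so it picks genes of a similar fold change, and the likeness of these fold changes is no separate result. The genes nearest to *Mt2* were *Mep1a*, *Rgcc* and *mt-Nd4l*, at distances of 0.678, 0.724 and 0.759. No gene of this pool came as close to *Mt2*, with its few reads, as these genes came to *Mt1*.

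Markers of other cell types were read beside these changes. Of 6 adipocyte markers 2 were measured, and *Fabp4* rose from 14.8 ± 6.71 to 121 ± 11.5 (log2 fold change 3.14, adjusted p = 1.3e-06, limma), while *Plin1* was at 0 in 5 of 6 libraries. The summed level of these 2 markers was 7.72 to 21.1 with vehicle and 108 to 133 with corticosterone. Of 4 measured chondrocyte markers 2 fell, *Col2a1* and *Sox9*, with sums of 3502 to 3915 and 2912 to 2954. The adjusted p of *Sox9* was 0.036 (limma), and 0.092 to 0.204 in the fits without a library, none of which called it. None of 4 muscle markers passed, also at an unadjusted p under 0.05 and by edgeR and DESeq2 (30.9 to 37.2 and 39.8 to 42.8), and of 4 macrophage and osteoclast markers 1 fell, *Ctsk* (1848 to 2008 and 1456 to 1521). The part of these markers, and of the lower depth of the corticosterone libraries, in the changes of the 10 genes was not tested.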

How the data were processed

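RNA-seq was performed on 3 vehicle and 3 corticosterone cultures, with libraries from the NEB Next Ultra RNA kit sequenced commercially on an Illumina platform. The submitters' processing notes name mm10; the aligner, counter, annotation and strand setting are not given in the sources used here. The authors deposited a single table, whose values are named FPKM and are a signal that is never negative. The values are whole multiples of 1 step per library for genes of any length, so they are gene counts divided by a size factor, and whole reads were recovered for 100% of values (tolerance 0.02).

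The 10 genes and all lists were chosen with earlier results of these data known. Groups were compared in R 4.3.3 by limma 3.58.1 (lmFit, then eBayes with trend) on log2(value + 0.1) over 24016 genes with Benjamini-Hochberg adjustment; fold changes are on this scale, and for low genes the pseudocount can make them too large or too small. A gene rose or fell at an adjusted p under 0.05, and the threshold, taken from the study, also asked for a log2 fold change beyond 1 in size. The study used this threshold with DESeq2, and here it was used with limma unless another test is named. Intervals are 95% intervals of that fit. Genes were named as the 10 genes, their families, pathway genes that passed and up to 2 per list that did not, cell type markers, and the 3 nearest to *Mt1* and *Mt2*. *Slc7a11* was named in addition. Scripts were tested on simulated data.

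Alternatives were pseudocounts of 1 and 0.01, a mean of at least 1 or 10, the replicate number as a block, no variance trend, quantile normalization, equal totals, edgeR 4.0.16 (with and without the block) and DESeq2 1.42.0 on recovered reads, and each library left out. Coordinates and exons come from GENCODE (GRCm38), promoter sequences from RefSeq (GRCm38.p6). Groups of 3 libraries were too small for an outlier test. Counting floors cover counting error only.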

Additional observations from a re-analysis of the deposited data

How the results depend on the processing

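Over 17 alternatives, 514 to 865 genes passed the threshold beside 668, and 4 or 5 of the 10 genes had an adjusted p under 0.05. The 514 genes, 269 higher and 245 lower, came from DESeq2, the test that the study used. Without single libraries, the ranges were 631 to 865 genes and 4 to 5 of the 10. *Mt1*, *Slc39a14*, *Slc30a1* and *Slc39a6* passed an adjusted p of 0.05 in the same direction in all 17. *Slc30a4* kept its direction in all 17 and lost its call in 6. The *Mt2* to *Mt1* log2 ratio difference, 0.23, was -0.12 with a pseudocount of 1 and ranged from -0.49 to 0.77 without single libraries. It was negative without vehicle replicate 1 (-0.49) and without corticosterone replicate 3 (-0.09). The cause was not tested.

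Same-numbered libraries had correlations of -0.04, 0.00 and 0.02 in their deviations from the group means over 13880 genes. Differently numbered libraries had correlations of -0.06 to 0.07. These values show no pairing by replicate number, but correlations this close to 0 cannot decide whether same-numbered libraries shared a culture or passage. With the replicate block, 591 genes passed the threshold in limma and 564 in edgeR, and the block changed no call among the 10 genes. edgeR and the minimum mean of 10 removed *Mt2*, *Mt3* and *Slc39a8*, the minimum mean of 1 removed *Mt3*, and DESeq2 gave no adjusted p for *Mt3* and *Slc39a8*. The few reads limit the statements on these 3 genes, which had at most 10 reads in any library.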
